A study of Mus musculus with 30 samples.

Results

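The kidneys of 10 male mice were compared by the number that ends each mouse's label, with the 5 kidneys of mice numbered 1 set against the 5 kidneys of mice numbered 2. These 10 arrays are all the kidney arrays among the 30 of the series, which also holds 10 liver and 10 brain arrays. The groups were chosen from the labels alone, and each coat class gave 1 mouse of each number, so that the mice formed 5 pairs by coat class, from yellow over slightly mottled, mottled and heavily mottled mice to pseudoagouti. All 10 mice were Avy/a, taken at day 22 and kept in polycarbonate-free cages, and the colony was inbred with the Avy allele held heterozygous. Total RNA from frozen kidney was biotin-labelled and read on Affymetrix mouse arrays, 1 array for each kidney. The labels do not say what the number stands for, and they give no litter, scan date or batch, so anything that came with the number cannot be told apart from it. Each coat class holds a single mouse of each number, and the p-values measure the spread between these mice.

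In the viable yellow allele Avy a retrotransposon lies upstream of the agouti gene and can switch it on outside the skin, and the methylation of that element differs between isogenic littermates, which gives coats from yellow to pseudoagouti. The kidney is mostly tubule: the proximal tubule reabsorbs sugar, amino acids, phosphate and organic ions and is packed with mitochondria, the thick ascending limb and distal tubule recover salt, and the collecting duct sets the final water and acid content. Glucocorticoids, the adrenal hormones of stress and of the daily rhythm, induce a shared set of genes in kidney and other tissues through the glucocorticoid receptor.

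Signals are given as deposited, in arbitrary units, and values by array run throughout in coat order, from yellow through slightly mottled, mottled and heavily mottled to pseudoagouti. Differences are number 1 minus number 2 on the log2(signal + 16) scale, which understates the change of dim genes. All 32 measured proximal tubule genes and all 19 measured thick ascending limb and distal tubule genes had mean signals of at least 50. That low cut separates tissues poorly: only 1 of 11 adipose, 2 of 9 liver, 3 of 9 brain and 4 of 7 skeletal muscle markers lay under it. The proximal tubule markers summed to 292000 to 457000 in kidneys numbered 1 and 226000 to 303000 in kidneys numbered 2. The 7 skeletal muscle markers summed to 292.9 to 460.3 in kidneys numbered 1 and 302.9 to 579.9 in kidneys numbered 2, and the 8 adrenal cortex markers to 464 to 703 and 596 to 751. Markers of 2 other tissues were higher and varied between mice: 11 adipose markers summed to 25000 to 71800 in number 1 and 29700 to 54000 in number 2, and 9 liver markers to 9390 to 18600 and 8750 to 24600. The median signal per array was 114 to 140.4 for number 1 and 122 to 153 for number 2.

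Many kidney transcripts differed between mice numbered 1 and 2. Of 22519 probe sets tested, 1202 (5.34%) were higher and 1711 (7.6%) were lower in kidneys numbered 1, at a Benjamini-Hochberg adjusted p under 0.05 in limma with coat class as a block. The 2913 calls, 12.9% of the probe sets, belonged to 2314 of 11543 genes tested, and 2483 of them had the same sign in 5 of 5 pairs. The median size of a called difference was 0.62 log2, with 52 probe sets higher and 168 lower by at least 1. Scaling moved the split: higher calls were 41.3% of all calls as deposited and 68.8% after each array was divided by its median (1315 higher, 597 lower). For 1401 probe sets (6.22%) the groups did not overlap. The counts rested on the choice of mice: with the yellow, slightly mottled, mottled, heavily mottled or pseudoagouti pair left out, 126, 1, 2300, 3 and 0 probe sets were higher and 249, 6, 3207, 15 and 5 lower. With the array's log2 highest signal as a covariate limma called 0 probe sets, although 1799 had an unadjusted p under 0.05.

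The highest signal on the array ran with the number in 4 of 5 pairs. It was 38090, 39180, 22990, 45410 and 36950 in kidneys numbered 1, against 21480, 19010, 25920, 23480 and 25920 in kidneys numbered 2. The mottled array of number 1 lay among the number 2 arrays, and without it the groups did not overlap. The mean log2 difference was 0.63 (two-sided exact permutation p = 0.0317, adjusted p = 0.0761 over 12 array measures), and without the mottled pair the exact p was 0.0286, the smallest that 8 arrays allow. The cre transcript, a bacteriophage RNA spiked in at a fixed and high amount before hybridisation, does not come from the mouse. Its signal was 27630, 29440, 18660, 29720 and 24100 in number 1, against 15150, 16120, 22410, 18470 and 19430 in number 2, a log2 difference of 0.49 (exact permutation p = 0.0238, adjusted p = 0.0714). The 4 pairs other than mottled were higher in number 1 by 0.31 to 0.87, and the mottled pair was lower by 0.26, so the spike split the arrays as the highest signal did.

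The probe sets for 18S ribosomal RNA, which has no poly(A) tail and is mostly not copied by oligo(dT) priming, gave 344, 407, 200.4, 289.8 and 229 in number 1, against 39.1, 91.1, 225, 56 and 87.3 in number 2. The log2 difference was 1.78 (exact permutation p = 0.0159, adjusted p = 0.0714), with 4 of 5 pairs higher in number 1. The mottled array of number 2 was the exception, at 225 beside 39.1 to 91.1 in the other number 2 arrays. The dimmer spike bioB, put in near the detection limit, had 588, 702, 711, 649.7 and 577 in number 1 and 435, 507, 832, 528 and 525 in number 2, which overlapped (difference 0.22, exact permutation p = 0.246). The ratio of 3′ to 5′ Gapdh probe sets, a gauge of RNA length, was 0.780 ± 0.022 in number 1 and 0.856 ± 0.090 in number 2 (SD, n = 5 each, exact permutation p = 0.0238, adjusted p = 0.0714). The pseudoagouti array of number 2 stood at 1.015, and the next at 0.826. For Actb the same ratio went the other way, at 1.697 ± 0.087 in number 1 and 1.531 ± 0.153 in number 2. It was higher in number 1 in 4 of 5 pairs (exact permutation p = 0.0952, adjusted p = 0.143), so the 2 gauges disagreed. With the Gapdh ratio as a covariate no probe set was called either, and 3264 had an unadjusted p under 0.05. None of these measures passed after adjustment over the 12.

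**Figure D1:**
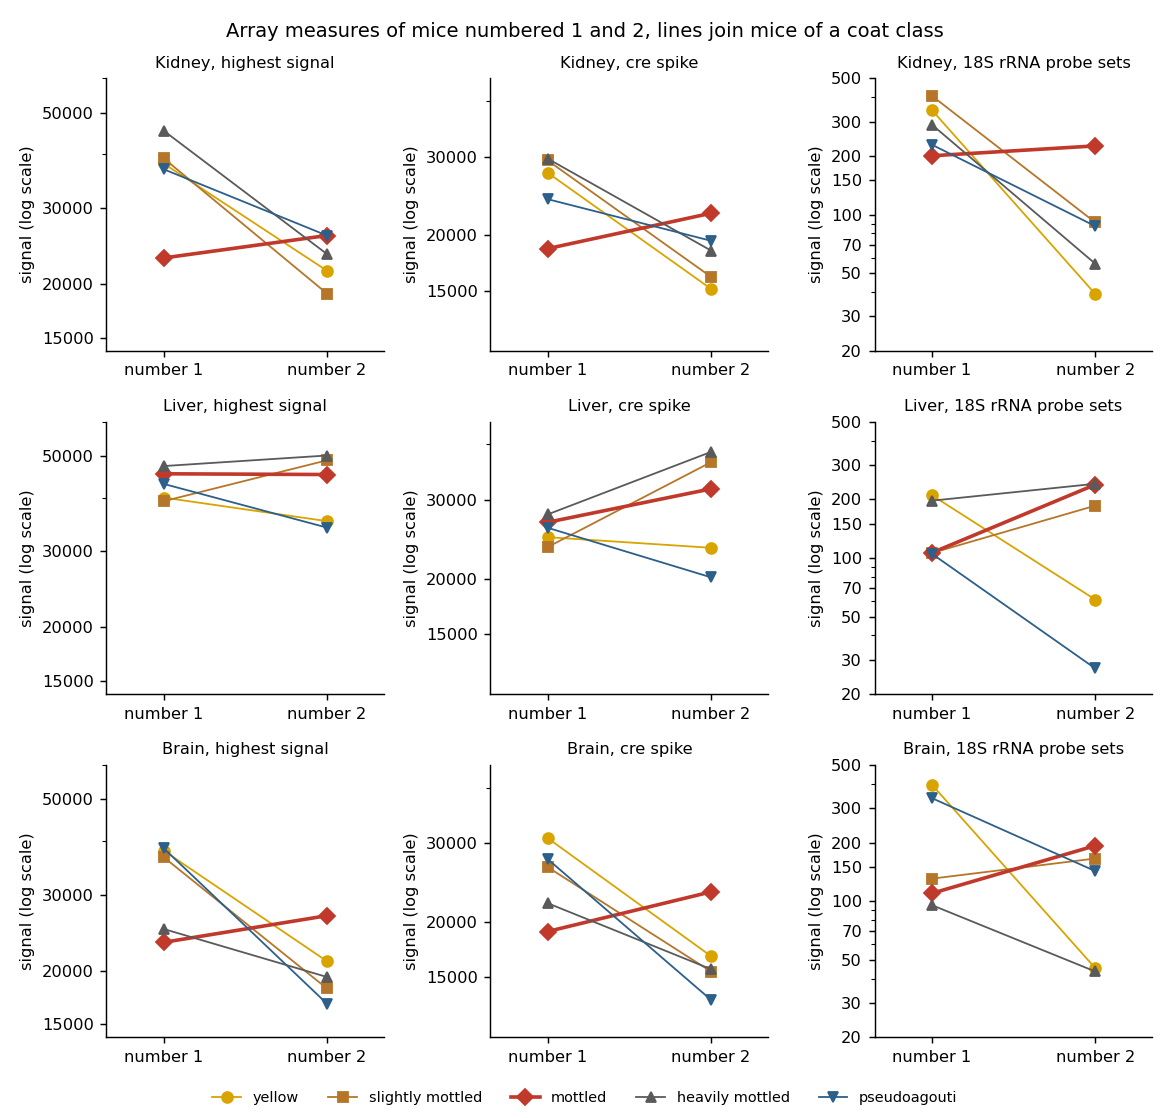
Highest signal, cre spike and 18S rRNA probe sets on every array (signal on log axes), with kidneys in the top row, livers in the middle and brains at the bottom, and number 1 left of number 2. Each line joins the 2 mice of a coat class. In kidney 4 lines run down from number 1 to number 2 in each panel and the mottled line, in red, runs up, and the same 4 against 1 appears for the highest signal and the cre spike in brain.

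The difference between numbers depended on how bright a probe set was. In 10 bins of equal number by mean kidney signal, the median difference was -0.16 in the dimmest bin, signals of 125 to 162, and 0.23 in the brightest, signals above 3049. In the brightest bin 16.1% of probe sets were higher and 2.89% lower, and in the dimmest 0.755% were higher and 4.88% lower. The 100 brightest probe sets had a median of 0.55, with 18 higher and 0 lower. By pair these 100 were higher in number 1 by 0.83, 0.88, 0.72 and 0.43 in the pairs yellow, slightly mottled, heavily mottled and pseudoagouti, and lower by 0.16 in mottled. After quantile normalisation over the 10 kidney arrays, which gives every array the same distribution, their median was 0.01. The median of all probe sets was -0.05 as deposited, 0.00 after quantile normalisation and 0.09 after dividing each array by its median, a shift of the whole scale to bear in mind for every small difference below.

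**Figure D2:**
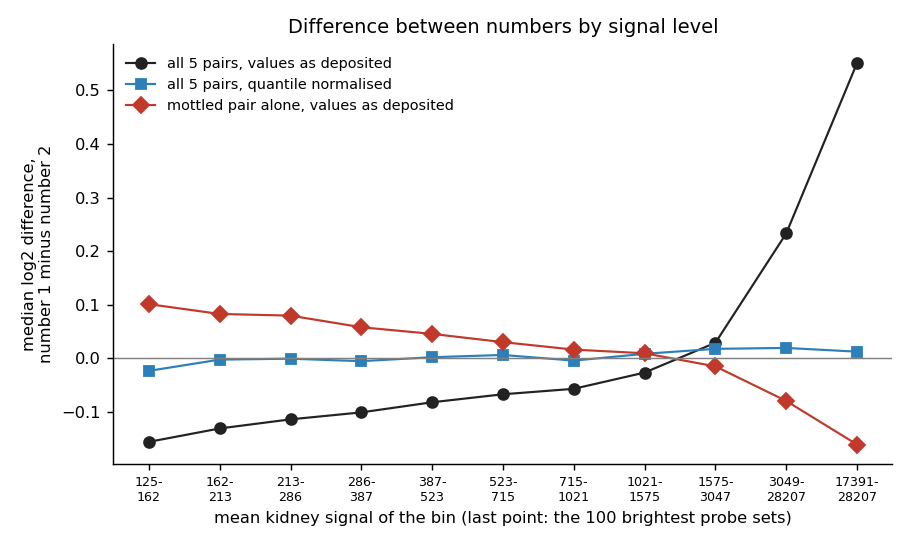
Median log2 difference, number 1 minus number 2 (vertical axis), in 10 bins of mean kidney signal and in the 100 brightest probe sets (horizontal axis). Black circles are all 5 pairs as deposited, from -0.16 in the dimmest bin to 0.55 in the 100 brightest, blue squares the same after quantile normalisation, near 0 throughout, and red diamonds the mottled pair alone, which slopes the other way.

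Of 57 tested subunits of oxidative phosphorylation, the mitochondrial machinery that burns fuel to make ATP, 16 were higher in kidneys numbered 1, 0 were lower and 41 were not called. The share of all probe sets called higher was 5.34%, and 16.1% in the brightest bin, and 56 of the 57 had a positive difference. Their median difference was 0.52, beside -0.05 over all probe sets, and their median signal of 11700 put them among the brightest transcripts of the array. Ndufs5, a subunit of complex I, had signals of 8415, 7844, 4609, 9223 and 8193 in number 1, against 4109, 4079, 4377, 4129 and 3979 in number 2. The groups did not overlap, but the mottled mouse of number 1 was far nearer to number 2 than to its own group, and the difference was 0.85 ± 0.16 (SE, limma adjusted p = 0.0196). Atp5l, a subunit of ATP synthase, had 19054, 16948, 9682, 19946 and 15899 in number 1, against 7326, 8710.1, 11311, 8961 and 7248 in number 2. It was higher in 4 pairs and lower in the mottled pair, with a difference of 0.88 ± 0.21 (limma adjusted p = 0.0322).

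After quantile normalisation the median of the 57 was 0.11, with 7 higher and 1 lower, beside 5.4% of all probe sets higher and 5.67% lower. After cyclic loess the median was 0.23, with 8 higher and 0 lower, beside 5.5% and 6.07%. In the mottled pair, whose 2 arrays had like highest signals, the median was -0.14, against 0.48 to 0.78 in the other 4 pairs. Without the mottled pair 50 of the 57 were called higher, beside 10.2% of all probe sets. Cytosolic ribosomal proteins, also very bright with a median signal of 13900, ran the same way: 7 of 39 tested were higher and 0 lower. That count was near the 16.1% higher in the brightest bin, beside 5.34% of all probe sets. Their median of 0.43 was -0.01 after quantile normalisation, 0.11 after cyclic loess and -0.15 in the mottled pair. Rpl8, a protein of the large ribosomal subunit, had 16433, 14012, 7977, 13826 and 15552 in number 1, against 5885, 7125, 8306, 7929 and 5299 in number 2, and again the mottled array of number 1 stood with number 2 (difference 0.95 ± 0.21, limma adjusted p = 0.0270). Ndufs5, Atp5l and Rpl8 were called when the mottled pair was left out but with no other pair left out, where their adjusted p reached 0.0801, 0.119 and 0.107. Of 12 tested citric acid cycle genes 4 were higher, Idh3b, Idh3g, Dlst and Suclg1, by 0.38 to 0.52, beside the same shares, but 0 after quantile normalisation. Of 29 tested genes of glutathione and antioxidant defence 5 were higher, namely the peroxidases Gpx1, Gpx3 and Gpx4, the transferase Gstp1 and thioredoxin, Txn1, beside 5.34% of all probe sets. That count was near the 16.1% of the brightest bin, where the list's median signal of 5140 lay. After quantile normalisation 2 of the 29 were higher and 1 lower. The highest signal, the cre spike and these bright lists moved together over the pairs, and the part of the array signal in the list differences was not tested.

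**Figure D3:**
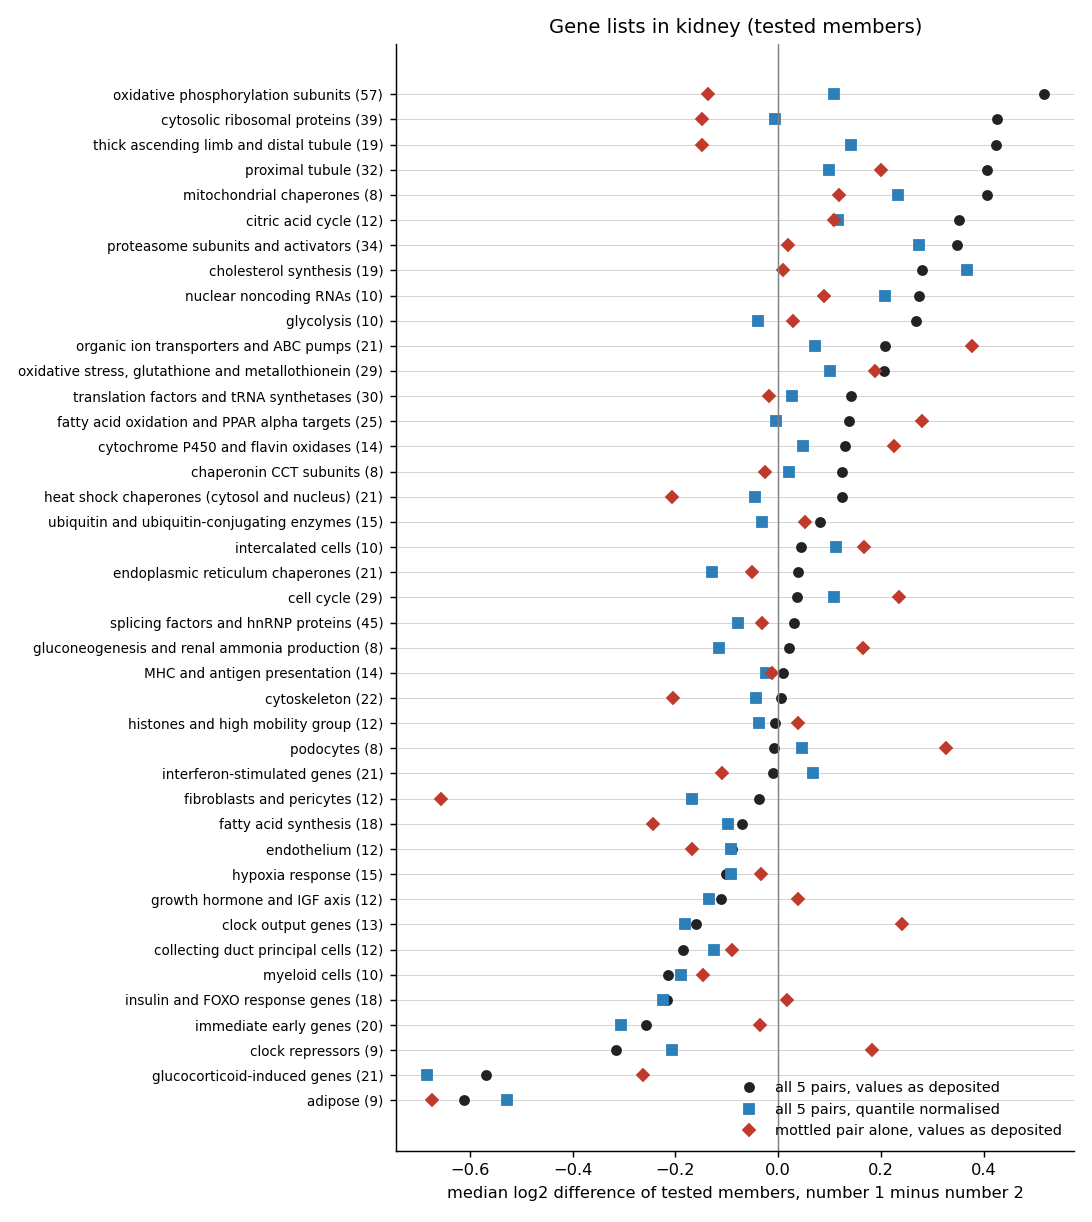
Median log2 difference, number 1 minus number 2 (horizontal axis), of the tested members of each list with at least 8 (vertical axis, number of members in brackets). Black circles are all 5 pairs as deposited, blue squares the same after quantile normalisation and red diamonds the mottled pair alone. Oxidative phosphorylation lies at 0.52, 0.11 and -0.14, and the glucocorticoid-induced genes at -0.57, -0.68 and -0.26.

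Of 32 tested proximal tubule markers 9 were higher in kidneys numbered 1, 0 were lower and 23 were not called, beside 5.34% of all probe sets higher and 16.1% in the brightest bin, where the list's median signal of 8580 lay. The median difference was 0.41, with 29 positive, and after quantile normalisation it was 0.10 with 3 higher. In bulk kidney a difference in the share of tubule cells and a difference in RNA per cell cannot be told apart. The summed signal of the markers was 292000 to 457000 in number 1 and 226000 to 303000 in number 2. Lrp2, the endocytic receptor megalin, had 13523, 15562, 10784, 15692 and 12592 in number 1, against 8616, 8731, 9333, 10599.7 and 7794 in number 2. The groups did not overlap (difference 0.59 ± 0.14, limma adjusted p = 0.0288), but the mottled pair differed by 0.21, and after quantile normalisation the difference was 0.25 with an adjusted p of 0.0634. Fbp1, the gluconeogenic enzyme fructose-bisphosphatase, behaved like it, at 0.70 as deposited, 0.10 in the mottled pair and 0.13 after quantile normalisation (limma adjusted p = 0.195). Over all alternatives the adjusted p of Lrp2 ran from 0.00246 to 0.947 and that of Fbp1 from 0.00142 to 0.978, and with a pair other than mottled left out it reached 0.111 and 0.116.

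For 3 of the 9 genes the mottled pair differed by more than the mean of all pairs. Slc17a3, a transporter of urate and organic anions, had 5172, 6999, 8447, 16633 and 5527 in number 1, against 3449.7, 3367, 3023, 6247 and 2912 in number 2. The heavily mottled mice were the highest of both groups, so that the groups overlapped, yet each pair was higher in number 1 (difference 1.09 ± 0.14, limma adjusted p = 0.0148, and 0.94 after quantile normalisation with an adjusted p of 0.0182, range over all alternatives 0.00345 to 0.947). Slc7a13, an amino acid transporter of the straight end of the proximal tubule, had 3466, 3709.7, 6183, 16921 and 3215 in number 1, against 2298, 2036, 2345, 4406 and 1935 in number 2. Its difference was 1.10 ± 0.18 (limma adjusted p = 0.0171), with 1.39 in the mottled pair. Its second probe set, dim at a mean signal of 200, was called higher, by 1.55. That probe set passed the filter through the kidneys where it was high, so it adds no separate support, and its size is read against near-background signals. Slc22a6, the organic anion transporter OAT1, had a difference of 0.66, of 1.40 in the mottled pair and of 0.63 after quantile normalisation (limma adjusted p = 0.0591, range over all alternatives 0.0253 to 0.947), and its other probe set was not called. With a pair left out, the adjusted p reached 0.0679 for Slc17a3, 0.0699 for Slc7a13 and 0.137 for Slc22a6.

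In the thick ascending limb and distal tubule 4 of 19 tested markers were higher and 0 lower, beside 5.34% of all probe sets higher and 16.1% in the brightest bin, with a median of 0.42 that was 0.14 after quantile normalisation and -0.15 in the mottled pair. The 4 were Klk1, the tissue kallikrein, Slc12a3, the thiazide-sensitive salt cotransporter, the tight junction protein Cldn16 and the calcium buffer Pvalb. Slc12a3 had 7949, 8085, 5976, 5809.7 and 7906 in number 1, against 3506, 4679, 3754, 6224 and 4092 in number 2 (difference 0.70 ± 0.17, limma adjusted p = 0.0323). Its groups overlapped through the heavily mottled mouse of number 2, and in that pair number 1 was the lower. Umod, which encodes the urinary protein uromodulin, had 27986, 27771, 17509, 30964 and 26654 in number 1, against 16042, 13865, 20240, 17614 and 17956 in number 2, and missed the threshold (0.60 ± 0.19, limma adjusted p = 0.0620). Of 4 tested Klk1 probe sets 2 were higher, and a dimmer one had the opposite sign, at -0.74 (limma adjusted p = 0.0526). With a pair other than mottled left out neither Klk1 nor Slc12a3 was called, with adjusted p of up to 0.131 and 0.118.

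Of 12 tested markers of principal cells in the collecting duct 0 were higher and 2 lower (median -0.19, and -0.12 after quantile normalisation), beside 7.6% of all probe sets lower, and 4 of the 12 had a positive difference. The 2 were Aqp4, a basolateral water channel, and Scnn1a, a subunit of the epithelial sodium channel, at -1.10 and -0.56. Aqp4 had 1868, 488, 1678, 1179 and 2853 in number 1, against 3433, 2867, 3503, 1631 and 4252 in number 2. It was lower in 5 of 5 pairs, but the groups overlapped, and 2 other probe sets of Aqp4 were not called. Aqp2, the vasopressin-regulated water channel of the same cells, had a difference of -0.27 ± 0.20 (limma adjusted p = 0.355). Without any pair but the mottled one, Aqp4 was no longer called, with an adjusted p of up to 0.0772. Of 10 intercalated cell markers Car2 was higher and Slc4a1 lower (median 0.04), beside 5.34% of all probe sets higher and 7.6% lower. None of 8 podocyte markers was called.

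Among endothelial markers 3 of 12 were lower and 0 higher, beside 7.6% of all probe sets lower, with 6 positive and 6 negative differences and a median of -0.09: Cdh5, the cadherin of endothelial junctions, the trafficking protein Ehd3 and the adhesion protein Esam. Cdh5 had 469.8, 403, 566, 365 and 327 in number 1, against 1336, 908, 487, 843 and 833 in number 2, with 4 pairs lower and the mottled pair higher (difference -0.98 ± 0.22, limma adjusted p = 0.0264). Pdgfra, a growth factor receptor of interstitial fibroblasts, was lower by 0.68 ± 0.13 (limma adjusted p = 0.0198). It was the 1 call among 12 tested fibroblast and pericyte markers, near the same 7.6%. Of its 3 tested probe sets 1 was called, and the dimmer ones differed by 0.22 and -0.46. The summed endothelial signal was 19900 to 33900 in number 1 and 24100 to 31700 in number 2. Without a pair other than mottled, neither Cdh5 nor Pdgfra was called, with adjusted p of up to 0.1 and 0.0699. Of 10 tested myeloid markers the complement gene C1qb was lower, near the 7.6% of all probe sets lower. No tested marker of lymphocytes, adrenal cortex or adipose tissue was called.

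Of 21 tested glucocorticoid-induced genes 10 were lower in kidneys numbered 1, 0 were higher and 11 were not called, 4 of the 21 having a positive difference. The share of all probe sets lower was 7.6%, and the list had a median of -0.57, beside -0.05 over all probe sets. After quantile normalisation 12 were lower with a median of -0.68, and their median signal of 2380 lay in a bin whose median difference was 0.03. The 10 were Fkbp5, Tsc22d3, Per1, Zbtb16, Cebpd, Dusp1, Sesn1, Ddit4, Pdk4 and Cdkn1a. Zbtb16, a zinc finger repressor strongly induced by the glucocorticoid receptor, had signals of 195, 58.3, 158, 146 and 358 in number 1, against 1802, 1641, 179, 2774 and 2306 in number 2. In 4 pairs number 2 was several times higher, and in the mottled pair both mice were low (difference -2.90 ± 0.48, limma adjusted p = 0.0171, and -0.17 in the mottled pair).

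Tsc22d3, which encodes the anti-inflammatory protein GILZ, had 2339, 2659, 1193, 978 and 3108 in number 1, against 6324, 4512, 1683, 4989 and 5066 in number 2 (difference -1.14 ± 0.23, limma adjusted p = 0.0211). The mottled mouse of number 2 was the lowest of its group, the groups overlapped, and 2 dimmer probe sets of the gene were not called. Per1, a clock repressor that glucocorticoids also induce, had 684, 647, 274, 154 and 642 in number 1, against 1491, 1254, 466, 865 and 1173 in number 2 (difference -1.20 ± 0.21, limma adjusted p = 0.0172). It was lower in each pair, and its groups overlapped through the mottled mouse of number 2.

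Ddit4, an inhibitor of the growth kinase mTORC1, had 2028, 2532, 1744, 1506 and 2122 in number 1, against 3201, 4090.1, 3160.3, 2966 and 3528 in number 2 (difference -0.78 ± 0.10, limma adjusted p = 0.0148). The groups did not overlap, and the mottled pair differed by -0.85. Sesn1, a stress protein that also restrains mTORC1, had 672, 709, 1209, 564 and 1030.4 in number 1, against 1187, 1189, 2008, 1157 and 1697 in number 2 (difference -0.80 ± 0.10, limma adjusted p = 0.0148). Each pair was lower in number 1, but 2 other probe sets of Sesn1 were not called, at -0.18 and -0.28. Cdkn1a, the cell cycle inhibitor p21, had 429, 367, 587, 500.3 and 303 in number 1, against 882, 1436, 707, 885 and 769 in number 2 (difference -1.06 ± 0.20, limma adjusted p = 0.0196), with no overlap, although its other probe set was not called. With 1 pair left out at a time all 6 genes stayed lower, with differences of -3.58 to -2.50 for Zbtb16 and -0.81 to -0.73 for Ddit4, while their adjusted p reached 0.0665 to 0.0800. Klf9, Errfi1, Mt1, Mt2, Tgm2 and Nr3c1, other genes of the list, had differences of -0.01 to 0.30 and were not called.

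**Figure D4:**
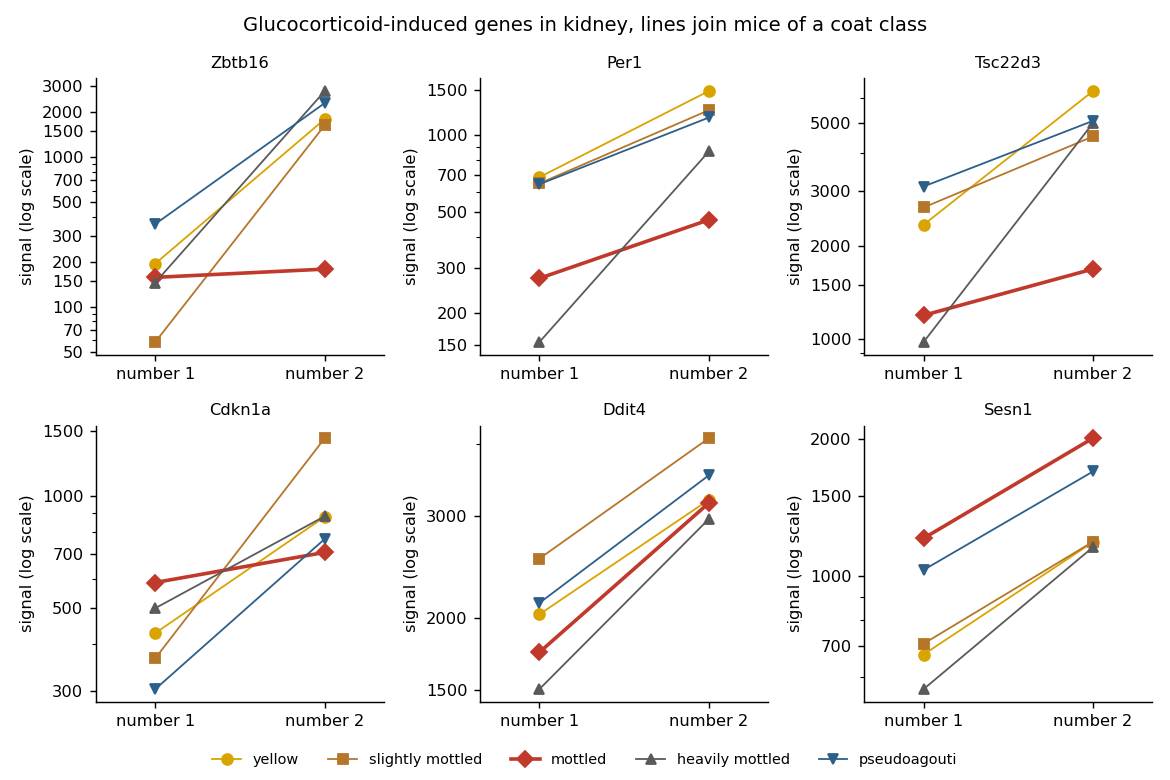
Signals of 6 glucocorticoid-induced genes (log axes) in each kidney, number 1 left of number 2, with lines joining the 2 mice of a coat class. All 30 lines run up from number 1 to number 2, and the mottled pair, in red, is nearly level for Zbtb16 at 158 in number 1 and 179 in number 2.

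Related stress and rhythm lists showed fewer calls. Of 18 tested insulin and FOXO response genes 2 were lower and 0 higher (median -0.22), near the 7.6% of all probe sets lower, the transcription factor Foxo3 at -0.72 ± 0.12 (limma adjusted p = 0.0168) and the nuclear receptor coactivator Pnrc1 at -0.52 ± 0.12 (limma adjusted p = 0.0298). Both tested probe sets of Foxo3 were called. Of 20 immediate early genes 2 were lower, Fosl2 and Dusp1, also near that share. None of 3 tested clock activators and 1 of 9 clock repressors, Per1, was called, while Per2, Nr1d1 and Bhlhe40 had differences of -0.43, 0.25 and -0.01 with limma adjusted p of 0.432, 0.295 and 0.987. Of 13 clock output genes Tsc22d3 was lower and the gap junction protein Gjb2 higher, near the 7.6% of all probe sets lower and 5.34% higher. Of 15 tested genes of the hypoxia response 3 were lower, beside the same 7.6%: Pfkfb3, an activator of glycolysis, at -1.07, the glucose transporter Slc2a1 at -0.56 and the collagen hydroxylase P4ha1 at -0.58. Of 3 tested Slc2a1 probe sets 1 was called, and the dimmer ones differed by -0.30 and -0.10.

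Of 34 tested proteasome genes 12 were higher and 0 lower (median 0.35), beside 5.34% of all probe sets higher. In the brightest bin, where the list's median signal of 3250 lay, 16.1% were higher. After quantile normalisation the list had a median of 0.27 and 10 higher, beside 5.4% of all probe sets. After cyclic loess its median was 0.24 with 9 higher, close to the 0.23 of oxidative phosphorylation on that scale. The mottled pair had a median of 0.02. Psmd14, the deubiquitinase of the proteasome lid, had 4135, 4909.8, 2801, 4367 and 3559.8 in number 1, against 2223, 2567, 2719.8, 2469 and 2173 in number 2 (difference 0.68 ± 0.14, limma adjusted p = 0.0224). The mottled array of number 1 was only just above number 2. Of 8 mitochondrial chaperones 4 were higher, Hspd1, Hspe1, Grpel1 and Trap1, by 0.42 to 0.70, beside the same shares of all probe sets. Their median signal of 3510 also lay in the brightest bin, and after quantile normalisation 2 were higher. None of 8 subunits of the cytosolic chaperonin CCT was called.

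In the endoplasmic reticulum 3 of 21 chaperones were higher and 5 lower, beside 5.34% of all probe sets higher and 7.6% lower. The disulfide isomerases Pdia3 and Pdia6, at 0.47 and 0.57, and the degradation factor Edem1 were higher, while Pdia4, Hyou1, Sdf2l1, Sel1l and Dnajb9 were lower. Pdia6 had 3896, 3756, 2458, 3467 and 4215 in number 1, against 2041, 2829, 2217, 2798 and 1986 in number 2. Pdia4 had 296, 511, 710.0, 257 and 327 in number 1, against 623, 992, 755, 800.1 and 810.0 in number 2 (difference -0.98 ± 0.19, limma adjusted p = 0.0198), and its mottled pair differed by -0.09. Hyou1, an Hsp70 relative of the reticulum, was lower by 0.57 ± 0.12 (limma adjusted p = 0.0216) and by 0.58 in the mottled pair, although its other probe set was not called.

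Of 21 tested heat shock chaperones of the cytosol 2 were higher and 1 lower, near the 5.34% of all probe sets higher and 7.6% lower. Differences were positive for 13 and negative for 8, with a median of 0.13 that was -0.04 after quantile normalisation. Hspa1a, the inducible Hsp70, whose near-identical copy Hspa1b its probes may also read, had 1516, 1791, 802, 1178 and 1953 in number 1, against 2489.6, 3328, 2225, 1388 and 4607 in number 2. It was lower in 5 of 5 pairs with overlapping groups (difference -0.90 ± 0.16, limma adjusted p = 0.0174), and by 1.45 in the mottled pair. Fkbp4, an Hsp90 co-chaperone of steroid receptors, was the other way, with 2061, 2081, 1438, 2070.1 and 2274 in number 1, against 1589.9, 1483, 1060.3, 1478 and 1337 in number 2 (difference 0.51 ± 0.10, limma adjusted p = 0.0217). Its other probe set, dim at a mean signal of 149, showed no difference (0, limma adjusted p = 0.995). Hspa4, an exchange factor of Hsp70, was higher by 0.57 ± 0.13 (limma adjusted p = 0.0292). Of its 3 tested probe sets 1 was called, and the dimmer ones, at 0.61 and 0.74, were reversed in the mottled pair. The promoters of Hspa1a and Fkbp4 are shown because both hold the same heat shock element core although the genes differed in opposite directions. They are from RefSeq on GRCm38.p6, 250 bases before to 50 after the start, with the match to GAANNTTC, which reads the same on both strands, in capitals: Hspa1a lies at chr17:34972107-34972406 on the minus strand and Fkbp4 at chr6:128438607-128438906 on the minus strand.
Hspa1a: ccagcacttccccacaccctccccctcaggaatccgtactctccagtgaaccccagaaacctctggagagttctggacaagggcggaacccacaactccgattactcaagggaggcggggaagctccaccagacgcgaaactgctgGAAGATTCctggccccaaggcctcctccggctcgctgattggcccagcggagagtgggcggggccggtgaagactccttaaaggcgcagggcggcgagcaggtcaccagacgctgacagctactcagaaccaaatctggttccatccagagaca
Fkbp4: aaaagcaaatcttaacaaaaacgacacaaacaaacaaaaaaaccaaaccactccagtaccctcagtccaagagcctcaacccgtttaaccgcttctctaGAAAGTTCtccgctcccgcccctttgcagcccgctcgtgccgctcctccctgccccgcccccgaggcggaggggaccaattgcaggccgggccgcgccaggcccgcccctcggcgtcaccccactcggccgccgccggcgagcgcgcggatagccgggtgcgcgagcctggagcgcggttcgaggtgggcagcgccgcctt
The core lay at -104 from the start in Hspa1a and at -151 in Fkbp4, and 7.86% of 32851 promoters of the same length hold it on either strand. Hspa4 had no match. For the 8 called glucocorticoid genes with a promoter in the table, the receptor's core ACANNNTGT was found in 0, beside 6.85% of all promoters, and the E-box CACGTG in 2, Dusp1 and Fkbp5, beside 7.15%.

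The single genes with the smallest p were picked among calls with the same sign in all 5 pairs, so their regularity is part of the choice. Gem, a small GTPase that restrains voltage-gated calcium channels, had 448, 179, 161, 127 and 292 in number 1, against 1312, 783, 506, 375 and 1086 in number 2. The groups overlapped, because coat classes differed, but each pair differed by a like amount (difference -1.68 ± 0.14, limma adjusted p = 0.00351, and -1.56 in the mottled pair). Ehf, an ETS transcription factor of epithelia, had 582, 289, 334, 288 and 743 in number 1, against 1475, 1209, 786, 799 and 1659 in number 2 (difference -1.42 ± 0.14, limma adjusted p = 0.00730). Its groups did not overlap, and all 3 of its tested probe sets were lower, with differences of -1.47 to -1.04.

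Tmem204, a membrane protein known from endothelial cells, had 559, 563, 653, 367 and 384 in number 1, against 1377, 1091, 1719, 1072 and 1589 in number 2 (difference -1.42 ± 0.15, limma adjusted p = 0.00730). Its 2 other probe sets were brighter, at mean signals of 1160 and 2650 against 816. They differed by 0.06 and -0.47 and were not called. Gem, Ehf and the called probe set of Tmem204 stayed called with any single pair left out, with limma adjusted p of up to 0.0480. Among the 50 genes followed through every alternative, 48 were called, and this held for these 3 only, each read at 1 probe set. Epcam, the epithelial cell adhesion molecule, had 599.7, 441, 460.1, 347 and 416 in number 1, against 1833, 1892, 983, 639 and 1058 in number 2 (difference -1.38 ± 0.17, limma adjusted p = 0.0128), and its brighter probe set was lower by 0.70. Tmprss2, a membrane serine protease, was lower by 1.57 ± 0.16 at 1 probe set (limma adjusted p = 0.00730), with a mean signal of 3190. The 2 others were not called: one as bright, at 3240, differed by -0.21, and a dimmer one by 0.33, the opposite sign. The leptin receptor Lepr was lower by 1.38 ± 0.17 (limma adjusted p = 0.0138) and Klhl2, a ubiquitin ligase adaptor for WNK kinases, by 1.03 ± 0.13 (limma adjusted p = 0.0128). Of 3 tested Lepr probe sets 2 were lower, and the dimmest, at -0.26, was not called.

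Among the genes higher in number 1, Dhrs4, a peroxisomal carbonyl reductase, had 2830.2, 2922, 1863, 4459.6 and 3223 in number 1, against 1672, 1458, 1026, 2306 and 1293 in number 2 (difference 0.97 ± 0.11, limma adjusted p = 0.0127). Both of its probe sets were called. Gcdh, the glutaryl-CoA dehydrogenase of lysine breakdown, had 4674, 4593, 2848, 5366 and 5259.9 in number 1, against 1954, 1889.8, 1917, 2863 and 1901 in number 2 (difference 1.09 ± 0.14, limma adjusted p = 0.0138), and the groups overlapped only through the mottled mouse of number 1 and the heavily mottled mouse of number 2. Glyat, which conjugates acids to glycine, was higher by 0.97 ± 0.14 (limma adjusted p = 0.0165) and the aminopeptidase Lap3 by 0.85 ± 0.11 (limma adjusted p = 0.0138). Dhrs4, Gcdh, Glyat and Lap3 had differences of 0.75 to 1.03 after quantile normalisation. Cela1, a serine protease of the elastase family, was higher by 0.88 ± 0.12 (limma adjusted p = 0.0148), with no overlap between the groups. With a pair left out the adjusted p of these 5 reached 0.0665 to 0.0699.

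Ssx2ip, a protein of centrosomes and cell junctions, had 319, 399.9, 191, 501 and 404 in number 1, against 111, 41.5, 38.6, 164 and 18.1 in number 2 (difference 2.26 ± 0.31, limma adjusted p = 0.0148). The groups did not overlap, and the mottled pair differed by 1.92. Its brighter probe set differed by 0.44, and by 0.05 in the mottled pair, so the 2 probe sets disagree on the size. The dimmer probe set averaged 8.50 in number 1 and 6.24 in number 2 on the log2 scale, so it passed the filter of 7.141 through the kidneys where it was high, and its size is read against near-background signals. Without the slightly mottled or the pseudoagouti pair the adjusted p was up to 0.0665.

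**Figure D5:**
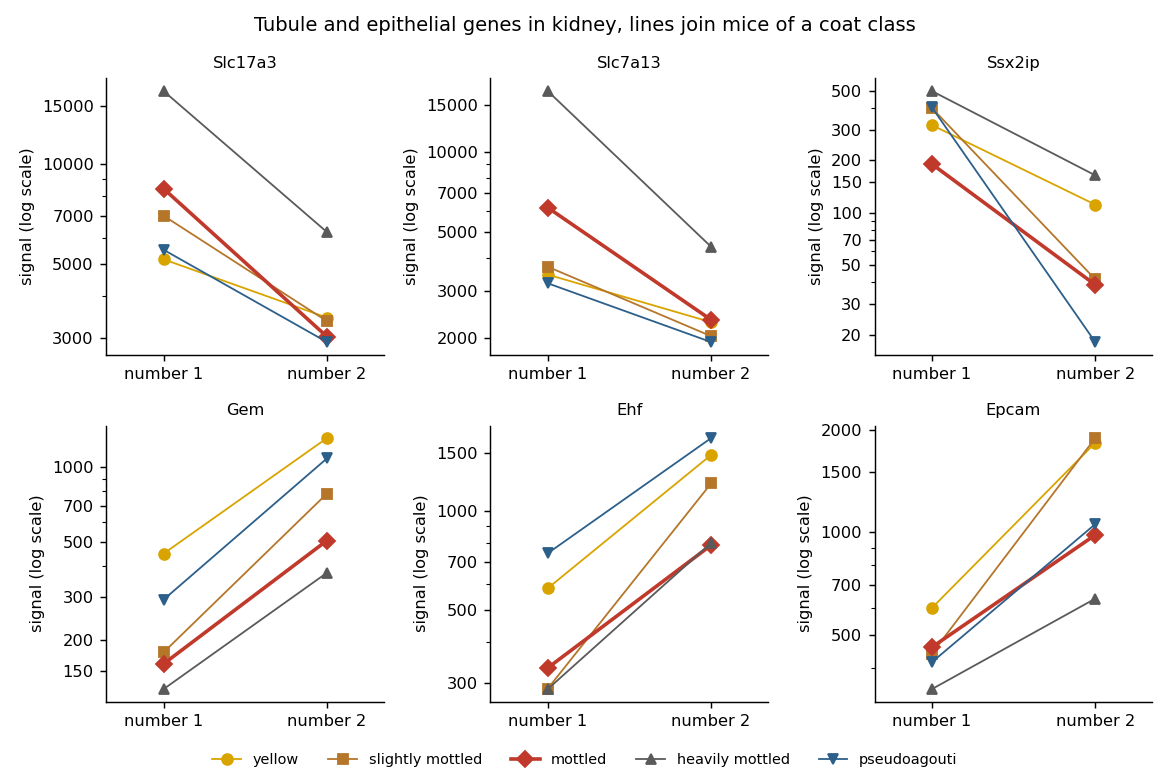
Signals of 6 genes (log axes) in each kidney, number 1 left of number 2, with lines joining the 2 mice of a coat class. All lines run down for Slc17a3, Slc7a13 and Ssx2ip and up for Gem, Ehf and Epcam, the mottled pair (red) included, at 161 in number 1 and 506 in number 2 for Gem.

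Of 19 tested genes of cholesterol synthesis 4 were higher and 1 lower, beside 5.34% of all probe sets higher and 7.6% lower. The median was 0.28, and 0.37 after quantile normalisation, where 4 were again higher and 1 lower, beside 5.4% and 5.67%. The enzymes Sqle, Cyp51, Nsdhl and Idi1 were higher by 0.47 to 0.87, and Insig1, which holds the SREBP activators in the endoplasmic reticulum, was lower. Cyp51 had 1626, 2053, 2654, 4209 and 1333 in number 1, against 986, 1208, 1909.8, 1379 and 759 in number 2 (difference 0.87 ± 0.15, limma adjusted p = 0.0172). Insig1 had 465, 544, 1583, 462 and 316 in number 1, against 702, 1416, 2021, 834 and 799 in number 2 (difference -0.88 ± 0.16, limma adjusted p = 0.0177). Both mottled mice stood high for Insig1, and the groups overlapped for both genes. The other Cyp51 probe set differed by 0.21 and was not called (limma adjusted p = 0.359). With a pair left out the adjusted p reached 0.071 for Cyp51 and 0.0744 for Insig1.

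Odc1, the first enzyme of polyamine synthesis and an androgen-responsive gene of mouse kidney, had 14511, 13697, 9009.9, 14920.4 and 12954 in number 1, against 6366, 6606, 7247, 8365 and 6731 in number 2 (difference 0.87 ± 0.15, limma adjusted p = 0.0171). The groups did not overlap, but its 2 other probe sets differed by 0.28 and 0.29 and were not called. Azin1, which protects ornithine decarboxylase from degradation, was also higher, by 1.09 ± 0.18 (limma adjusted p = 0.0171). Of 7 tested androgen-regulated genes 1 was higher, Odc1, and 1 lower, the amino acid transporter Slc7a12 at -0.76. Of all probe sets 5.34% were higher and 7.6% lower. The agouti gene itself, named a, had signals of 655, 334, 306, 127 and 80.3 in number 1, against 722, 470.3, 391, 270.3 and 101 in number 2. It was lower toward pseudoagouti within both numbers, and between numbers it was not called (difference -0.45 ± 0.16, limma adjusted p = 0.0845), with number 1 the lower in 5 of 5 pairs.

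The same comparison in the other tissues showed whether the number went with like differences there. In liver of the same mice 1092 probe sets (4.85%) were higher and 1006 (4.47%) lower in number 1, and in brain 0 were called, with 4220 at an unadjusted p under 0.05. The glucocorticoid list had a median of -0.569 in kidney, -0.565 in liver and -0.195 in brain, with 10, 7 and 0 lower. The oxidative phosphorylation list had medians of 0.52, 0.15 and 0.22, with 16, 14 and 0 higher. The proximal tubule list had 0 calls in liver. In brain the highest signal was 23260 to 38490 in number 1 and 16760 to 26820 in number 2, with the mottled pair again reversed, as in kidney. In liver it was 39230 to 47340 in number 1 and 34080 to 50090 in number 2.

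The difference between tissues was tested within mice. For no probe set did the number effect in kidney differ from that in liver (limma, smallest adjusted p = 0.108, with 3952 at an unadjusted p under 0.05) or from that in brain (smallest adjusted p = 0.115, with 4196). Without the coat-class block 111 probe sets differed between kidney and liver. Gem differed by -1.68 in kidney, -0.05 in liver and -0.16 in brain, and Ssx2ip by 2.26, 0.20 and -0.47, but neither interaction was called. Pnn, a splicing-associated protein, was 0.67 in kidney and -0.66 in liver, and Vdac1, a channel of the outer mitochondrial membrane, 0.57 and -0.74, each called in both tissues, with an adjusted p of 0.108 for the difference. Sesn1 and Zbtb16 were lower in liver too, by 0.89 and 1.50 (limma adjusted p = 0.00857 and 0.0144).

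Probe sets of a gene did not always give the same answer. Of 5114 genes with more than 1 tested probe set, 1526 had a call, 80 had all their probe sets called in 1 direction and 41 had calls in both directions. Probe sets with the suffix _x_at, which share sequence with other transcripts, were lower in number 1 in 14.2% and higher in 4.46% of 1523, while those with _a_at were lower in 5.32% and higher in 9.58% of 3288.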

How the data were processed

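RNA from 10 kidneys, with the liver and brain arrays of the same mice for comparison, was measured on arrays of 45101 probe sets, 1 array a sample. Per the submitters' processing notes, the deposited intensity values came from MAS5. Its version is not given in the sources used here. The values are linear, and each array's trimmed mean (2% trimmed at each end) was 500.0. No background correction was added.

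Intensities were taken as log2(signal + 16). The 64 control probe sets were set aside, and the 22519 probe sets whose mean log2 value over the kidney arrays reached the median (signal about 125) were tested with limma 3.58.1 in R 4.3.3, with coat class as a block, trended moderation and Benjamini-Hochberg adjustment over all probe sets at 0.05. Symbols came from the platform annotation: 34945 probe sets had 1 symbol, 932 several and 9160 none, and only those with 1 were named. A list gene was read from its probe set with the highest mean kidney signal, and other genes from the probe set with the smallest p. Named were, in each direction, the 15 genes with the smallest p among calls with 1 sign in 5 of 5 pairs, up to 6 members of each list by p, all members of short lists, the agouti gene, the control probe sets and the leading genes of each difference between tissues. Edem1, C1qb and the members given for the glucocorticoid, splicing, fatty acid and organic ion lists were named from the counts, after their values were seen. The groups and lists were chosen with earlier results of these data known.

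Array measures were compared by exact two-sided permutation tests over 252 assignments. Same-pair arrays correlated in their deviations from the group means at 0.063 to 0.25, and for 3 of 5 coat classes another pair correlated more highly, so coat class pairs the mice by label. Alternatives covered the offset, filter, scaling, block, covariates, moderation, probe set suffix and each pair or array left out. Promoters were from RefSeq (GRCm38.p6), with 12 of 14 called genes of the heat shock, glucocorticoid and clock lists matched. The model was tested on simulated data. Array number limits the precision.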

Additional observations from a re-analysis of the deposited data

Results flagged for a closer look

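In 15 of 124 groups of 5 arrays, 1 for each number and gene or array measure, the highest or lowest array stood apart from the rest. The figure given is the gap to the nearest array divided by the whole range of the group, and chance marks about 1 group in 20. The array that stood apart was a mottled one in 10 of the 15.

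Among kidneys numbered 1 the mottled array was lowest for 8 genes. The gap was 0.755 for Klk1 (17020 against 26050 for the next), 0.737 for Umod (17510 against 26650), 0.766 for Ndufs5 (4609 against 7844) and 0.785 for Ndufs1 (5159 against 7243). It was 0.761 for Rpl8, 0.72 for Odc1, 0.754 for Gcdh and 0.786 for Fkbp4. The heavily mottled array of number 1 was highest for Lap3, at 8899 against 4934, with a gap of 0.818.

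Among kidneys numbered 2 the mottled array was lowest for the glucocorticoid-induced genes Zbtb16, at 179 against 1640 with a gap of 0.804, and Tsc22d3, at 1683 against 4512 with a gap of 0.744. The heavily mottled array was highest for Slc17a3 (0.778), Slc7a13 (0.767) and Gcdh (0.92). The pseudoagouti array of number 2 had the highest ratio of 3′ to 5′ Gapdh probe sets, 1.015 against 0.826, with a gap of 0.817.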

How the results depend on the processing

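As deposited, 1202 probe sets were higher and 1711 lower in kidneys numbered 1. Without the filter on dim probe sets the counts were 320 and 560, after division of each array by its median 1315 and 597, and without the suffixed probe sets 711 and 1155. They were 588 and 1045 with no trend in the moderation, and 907 and 1032 with no coat-class block. Counts stayed within 1.5 times of the deposited scale after quantile normalisation (1215 and 1276), cyclic loess (1238 and 1366) and other offsets. With the highest signal as a covariate, with its class as a block (with or without the coat-class block), or with the Gapdh ratio as a covariate, limma called 0 and 0, with 1799, 1319, 1078 and 3264 probe sets at an unadjusted p under 0.05. Leaving out a coat pair gave 0 to 2300 higher and 5 to 3207 lower. With no block and 1 array left out, the counts were 0 and 0 except without the mottled array of number 1 (1988 and 2609), that of number 2 (1090 and 1297) or the heavily mottled array of number 2 (639 and 773). With no block and neither mottled array, an alternative chosen after seeing the data, they were 2092 and 2834. The difference between kidney and liver had 111 calls with no block.

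Umod reversed to -0.01 with the highest signal as a covariate. With its class and the coat-class block, which leaves the mottled pair's difference by construction, Umod was -0.21, Atp5l -0.22, Rpl8 -0.06 and Cdh5 0.21. With the class and no block Insig1 was 0.57. The cause was not tested. With a pair left out the log2 difference ran from 0.53 to 0.83 for the highest signal, 0.27 to 0.42 for the 99th percentile, -0.17 to -0.06 for the Gapdh ratio, 0.16 to 0.33 for bioB, 0.34 to 0.62 for bioC, 0.4 to 0.68 for cre and 1.44 to 2.26 for 18S. These 7 passed (adjusted exact permutation p = 0.049) without the mottled pair. The dim poly(A) spikes ran from -0.18 to 0.53, with -0.09 without the slightly mottled pair and -0.06 without the mottled pair. Of 50 genes followed, 46 kept their call or lack of one after quantile normalisation and 48 after cyclic loess. Signals near the background limit what dim probe sets can show.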

Other observations

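Splicing factors and hnRNP proteins, which bind and process nuclear RNA, were called in both directions. Of 45 tested 4 were higher and 6 lower in kidneys numbered 1, beside 5.34% of all probe sets higher and 7.6% lower. Their median difference was 0.03, and -0.08 after quantile normalisation. Srsf3, Srsf5, Sf3a3 and Tra2b were higher by 0.55 to 0.67, and Hnrnpr, Hnrnpul1 and Sfpq had differences of -0.67, -0.72 and -0.72. Of 25 tested genes of fatty acid oxidation 4 were higher, Acadvl, Etfdh, Decr1 and Acot12, beside the same 5.34%. That count was near the 16.1% higher in the brightest bin, where the list's median signal of 3320 lay. Hadhb, a subunit of the mitochondrial trifunctional protein, was the 1 lower, at -0.58, near the 7.6% of all probe sets lower. Organic ion carriers also divided, with Slc22a6, Slc22a19, Abcc2 and Abcg2 higher and Slco4c1 and Abcc4 lower, of 21 tested. Of all probe sets 5.34% were higher and 7.6% lower. After quantile normalisation 1 of the 21 was higher and 1 lower. Socs2, a growth hormone target, was the 1 call among 12 genes of that axis, at 0.51, near the share of all probe sets higher.

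Skil, a repressor of SMAD signalling, had signals of 1366, 1569, 1626, 951 and 1216 in number 1, against 2050.1, 2762, 2821, 1989 and 2256 in number 2. The groups did not overlap (difference -0.82 ± 0.11, limma adjusted p = 0.0144), and the difference was -0.79 in liver and in brain. Lamtor5, a subunit of the lysosomal Ragulator complex, had 7127, 7812, 6623, 8507 and 7389.8 in number 1, against 4229, 4096, 4682, 4984 and 3778 in number 2 (difference 0.78 ± 0.12, limma adjusted p = 0.0165).

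The brown fat markers Ucp1 and Cidea varied between mice far more than between numbers. Ucp1, the uncoupling protein, had 2349, 13.3, 6, 2528 and 60.6 in number 1, against 2131, 5276, 386, 3 and 226 in number 2. Cidea, a lipid droplet protein, had 1953, 5.5, 10.5, 1922 and 47.3 in number 1, against 1435, 3167, 377, 9.8 and 309.6 in number 2. Neither was called (limma adjusted p = 0.597 and 0.525), and the part of adipose tissue in other differences was not tested.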
